A study of Mus musculus with 6 samples.

Results

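The genes examined were 38 genes of lysosomal hydrolases and their cofactors, chosen by symbol from the 25124 genes of the deposited TPM table (a transcript level scaled for transcript length and library size). They comprised 10 proteases, 13 genes grouped as glycosidases, 4 sulfatases, 6 genes of lipid breakdown and sterol transfer, and 5 cofactors and others. All 38 were found, and all 38 reached the level needed for the test, 1 TPM in at least 3 libraries. The cells were bone marrow-derived macrophages (BMDM), grown for 7 days in 20 ng/ml macrophage colony-stimulating factor (M-CSF) from the marrow of wild-type C57BL/6 mice aged 8 weeks. M2 cells received 10 ng/ml interleukin-4 (IL-4) together with 20 ng/ml M-CSF for 4 h, and M0 cells were left in 20 ng/ml M-CSF for the same time. Each group had 3 libraries of polyadenylated RNA. Nothing in the labels says whether the replicates came from separate mice or cultures, so the p-values measure the spread between these libraries, which may be technical. The comparison asks which transcripts of the lysosomal degradation machinery differ after a short exposure to IL-4.

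Lysosomal hydrolases are made in the endoplasmic reticulum, tagged in the Golgi apparatus with mannose 6-phosphate, and carried by receptors to the acidic lysosome, where they break down protein, glycans, lipids and nucleic acid. Several lipid-degrading enzymes work only with small non-enzymatic helper proteins, among them the saposins cut from the Psap product. Macrophages carry large amounts of these enzymes because they digest what they engulf, and the cathepsins also trim antigens and the invariant chain for MHC class II. Many genes of the set are known targets of the MiT/TFE transcription factors, which bind an E-box-type sequence called the CLEAR element.

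The libraries held 16913185 to 19019896 reads in genes, as recovered from the TPM, and the members drew between 531 reads (Aga) and 496243 reads (Psap) in a library. M0 replicate 2 stood apart from the other M0 libraries, its counts giving chi-square to degrees-of-freedom ratios of 9.52 and 10.7 against them, where M0 replicates 1 and 3 gave 2.31 and pairs of M2 libraries 1.54 to 1.73. Each member call below that turns on this library is given with and without it. Counts of members whose groups did not overlap use all libraries. For the members, M0 replicate 2 differed from the mean of the other M0 libraries by -0.21 to 0.28 on the log2 scale, with 18 members below and 20 above. In 34 members it lay outside the other M0 libraries. The median absolute difference was 0.091 over members, against 0.128 over all genes tested. All 8 macrophage markers looked up were present, with a summed level of 15515 to 15887 TPM in M2 and 16654 to 17763 TPM in M0. Of these 3 rose, 3 fell and 2 did not pass on deposited TPM, where 17.7% of all genes tested rose and 45.3% fell. Fcgr1, an Fc receptor gene, changed most (20.6 ± 1.05 TPM in M2 and 128 ± 7.55 TPM in M0, SD, n = 3 each). Neutrophil markers summed to 34.0 to 42.3 TPM in M2 and 36.9 to 44.5 TPM in M0, and no erythroid marker had a read. Markers of T and NK cells, B cells, mast cells with basophils and eosinophils, stromal cells and dendritic cells each summed to under 10 TPM in every library. The stromal sum was 6.91 to 7.49 TPM in M2 against 8.60 to 9.46 TPM in M0, and the B cell sum was 1.10 to 1.58 TPM in M2 against 1.85 to 1.98 TPM in M0. The mast cell, basophil and eosinophil sum, nearly all Siglecf, was 2.45 to 2.89 TPM in M2 against 1.57 to 1.68 TPM in M0, and the dendritic cell sum, most of it Zbtb46 in M2, was 1.08 to 1.33 TPM in M2 against 0.292 to 0.551 TPM in M0. The part of these in the changes below was not tested.

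Promoter windows from RefSeq (build GRCm38.p6, 250 bases before to 50 bases after a transcription start) were on hand for 33 of the 38 genes, and Ctsb, Ctsh, Aga, Asah1 and Npc1 were not matched. The E-box CACGTG was found in 11 of the 33 genes (33.3%), against 8.09% of the 27025 genes with a window. The longer core of the CLEAR element, TCACGTGA, which contains the E-box, was in 4 of 33 (12.1%), against 1.12% of all genes. The palindrome of TTC and GAA with any 4 bases between, of the type bound by STAT6, the factor activated by the IL-4 receptor, was in 2 of 33 (6.06%), against 8.01% of all genes. All 3 motifs read the same on both strands. Naglu was the E-box gene with the largest rise over all libraries, and Gm2a the larger riser of the pair with the STAT6-type palindrome. The 4 windows with the CLEAR core and those of Naglu and Gm2a are shown 5′ to 3′, with matches in capitals.
Ctsa (chr2:164833523-164833822, + strand): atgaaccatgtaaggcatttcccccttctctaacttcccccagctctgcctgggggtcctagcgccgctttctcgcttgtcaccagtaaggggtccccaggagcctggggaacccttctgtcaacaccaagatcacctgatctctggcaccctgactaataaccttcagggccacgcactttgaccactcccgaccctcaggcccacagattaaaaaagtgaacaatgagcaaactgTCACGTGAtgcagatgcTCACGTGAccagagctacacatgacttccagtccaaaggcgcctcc
Ctsd (chr7:142387778-142388077, - strand): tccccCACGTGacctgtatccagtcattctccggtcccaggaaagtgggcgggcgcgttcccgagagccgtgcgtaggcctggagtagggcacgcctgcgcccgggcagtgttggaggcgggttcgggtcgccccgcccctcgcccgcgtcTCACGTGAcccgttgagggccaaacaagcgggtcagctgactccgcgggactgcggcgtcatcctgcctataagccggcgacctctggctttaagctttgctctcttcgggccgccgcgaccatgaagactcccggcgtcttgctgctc
Ifi30 (chr8:70766614-70766913, - strand): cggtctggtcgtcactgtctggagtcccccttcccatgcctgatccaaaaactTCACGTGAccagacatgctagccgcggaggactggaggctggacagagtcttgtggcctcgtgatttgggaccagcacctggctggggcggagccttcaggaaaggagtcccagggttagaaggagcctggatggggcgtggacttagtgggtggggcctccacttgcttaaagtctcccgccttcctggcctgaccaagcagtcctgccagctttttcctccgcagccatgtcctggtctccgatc
Gla (chrX:134600956-134601255, - strand): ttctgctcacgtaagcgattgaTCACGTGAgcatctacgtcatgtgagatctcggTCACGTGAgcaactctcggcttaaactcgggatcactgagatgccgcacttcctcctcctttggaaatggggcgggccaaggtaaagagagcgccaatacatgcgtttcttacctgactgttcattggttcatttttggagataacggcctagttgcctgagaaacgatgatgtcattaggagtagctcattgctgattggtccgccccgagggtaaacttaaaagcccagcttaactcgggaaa
Naglu (chr11:101069844-101070143, + strand): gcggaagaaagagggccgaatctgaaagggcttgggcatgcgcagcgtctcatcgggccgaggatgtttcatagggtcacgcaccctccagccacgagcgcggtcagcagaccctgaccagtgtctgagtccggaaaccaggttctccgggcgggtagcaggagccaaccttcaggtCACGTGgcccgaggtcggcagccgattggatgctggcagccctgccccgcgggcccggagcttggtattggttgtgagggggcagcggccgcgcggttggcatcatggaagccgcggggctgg
Gm2a (chr11:55097735-55098034, + strand): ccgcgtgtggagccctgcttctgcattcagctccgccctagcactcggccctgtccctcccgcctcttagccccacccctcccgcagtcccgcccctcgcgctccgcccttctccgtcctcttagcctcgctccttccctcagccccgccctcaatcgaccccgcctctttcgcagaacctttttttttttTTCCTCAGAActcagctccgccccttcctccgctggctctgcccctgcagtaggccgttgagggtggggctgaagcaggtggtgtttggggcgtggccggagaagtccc
Ctsa, which encodes a serine carboxypeptidase, had 2 matches to the CLEAR core close together, beginning 13 bases before the start and at base 5 after it. Gla, the alpha-galactosidase A gene, also had 2, beginning 228 and 195 bases before the start. Ctsd had 1 match 99 bases before the start and a further plain E-box 245 bases before it, and the Ifi30 match began 197 bases before the start. The remaining E-box genes were Naglu, Glb1, Gaa, Sgsh, Ctsl and Arsa, with matches beginning 16 to 236 bases before the start, and Lgmn. The Lgmn match lies 49 bases before a start that is itself 721 bases inside the measured transcript, and the other Lgmn window, nearer the measured start, has no match. All other windows with a match are placed on the start of the measured transcript. These are matches of letters and say nothing of binding in these cells.

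**Figure D1:**
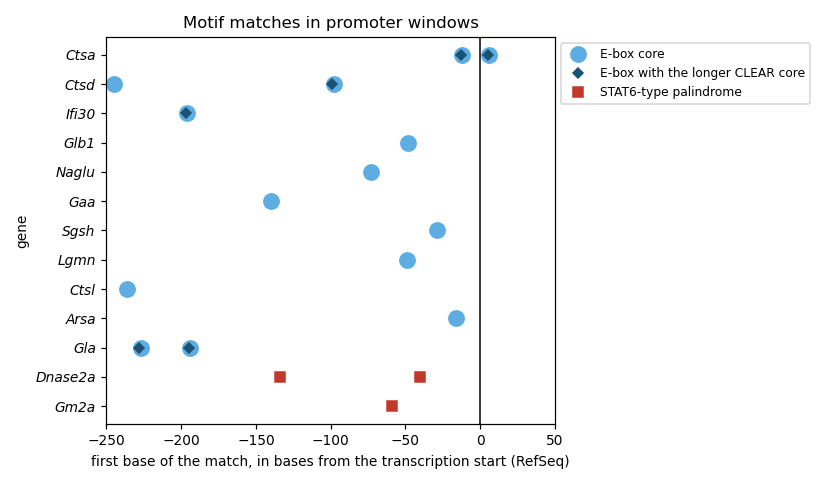
Position of each motif match in the promoter windows of the 13 genes with a match, in bases from the RefSeq transcription start (vertical line). Circles mark E-boxes, diamonds those within the longer CLEAR core, and squares STAT6-type palindromes; Ctsa has 2 diamonds beside the start and Gla has 2 near the far end.

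Transcripts of the lysosomal set were higher in M2 far more often than lower. Of the 38 members, 22 rose, 5 fell and 11 did not pass the test (limma-trend on log2 of TPM plus 1, Benjamini-Hochberg adjusted p under 0.05 over all 11235 genes tested). Members thus rose at 57.9% and fell at 13.2%, where 17.7% of all genes tested rose and 45.3% fell. In either direction 71.1% of members passed, against 62.9% of all genes. The median log2 fold change of the members was 0.25, against -0.15 for all genes tested. In 24 members every M2 library lay above every M0 library (63.2%, background 19.6%), and in 5 every M2 library lay below (13.2%, background 49.8%). The members were chosen with earlier results of these data known, so the contrast with all genes is given as a description. In bulk RNA, fewer cells of a type and less RNA per cell cannot be told apart.

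The scaling of the libraries matters for small changes, since all genes together leaned lower in M2 on deposited TPM. Division of libraries by median-ratio factors moved the median log2 fold change of all genes by 0.15, to 0.0010, and changes relative to that median are given beside those on deposited TPM. After this scaling 32 members rose, 1 fell (Ctsc) and 5 did not pass, where 28.7% of all genes rose and 28.5% fell, and in either direction 86.8% of members passed, against 57.2% of all genes. The median of the members was then 0.40. The authors' deposited table has 32 members higher in M2 at an adjusted p under 0.05, 1 lower and 5 not past it. In a limma-trend fit to its log2 values 33 members rose and 1 fell, where 3318 and 3323 of all genes did. The count of falls was unstable on deposited TPM, at 2 to 6 with 1 library left out, while the count of rises was 22 to 24. Without M0 replicate 2, 24 members rose and 6 fell, where 2214 and 5062 of all genes did.

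Most changes were modest. Among the 38, 9 rose at least 1.5-fold on the fitted scale, where 6.99% of all genes did so, and none fell that far, where 12.8% of all genes did. The 9 were Pla2g15, Psap, Ctsz, Gm2a, Naglu, Ifi30, Ctss, Galc and Ctsl. Just under that size were Gaa (0.58) and, among falls, Ctsc (-0.58), and both passed it with a pseudocount of 0.1 (0.59 and -0.60). Ctsc also passed it without M2 replicate 2 (-0.60), M0 replicate 1 (-0.59) or M0 replicate 3 (-0.61). Gaa also passed it without M2 replicate 2 (0.59) or M0 replicate 1 (0.61), and with limma-voom on recovered reads (0.64). After median scaling 14 members rose at least 1.5-fold, where 9.62% of all genes did, and again none fell that far, where 8.97% of all genes did.

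**Figure D2:**
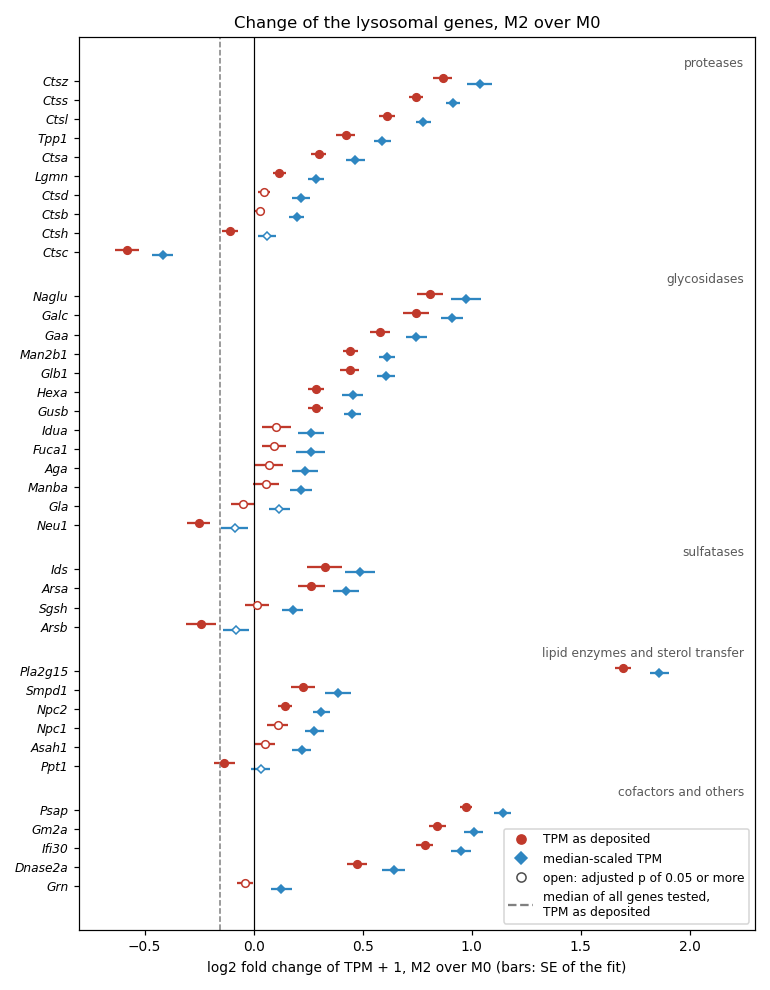
Log2 fold change of TPM plus 1, M2 over M0, for each member by role (bars are the SE of the fit), on deposited TPM (red circles) and median-scaled TPM (blue diamonds); open symbols did not pass. The points span -0.58 (Ctsc) to 1.69 (Pla2g15) on deposited TPM, and most lie right of the dashed line at -0.15, the median of all genes tested.

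The set took up a sizeable share of the summed TPM. Summed over the 38 genes, the level was 42553, 41855 and 42104 TPM in the M2 libraries, against 32219, 31552 and 32293 TPM in the M0 libraries. That was 7.84%, 7.70% and 7.75% of all TPM in the table in M2, against 5.84%, 5.76% and 5.84% in M0. In both groups 9 members stood among the 100 genes with the highest mean TPM. By mean TPM Psap ranked 2 among all genes in M2, against 6 in M0. It made up 28.1% of the members' summed TPM in M2 and 18.8% in M0, and Ctsd made up 27.0% in M2 and 34.5% in M0. The ratio of the summed level in M2 over M0 was 1.32 with Psap and 1.17 without it. The summed level of the proteases was 24734 ± 126 TPM in M2 and 21254 ± 260 TPM in M0 (SD, n = 3 each), and that of the glycosidases 2186 ± 2.95 TPM in M2 and 1754 ± 25.9 TPM in M0. The lipid genes summed to 1259 ± 7.01 TPM in M2 and 1005 ± 23.0 TPM in M0, and the cofactors and others to 13906 ± 263 TPM in M2 and 7928 ± 151 TPM in M0. Of the 5 classes only the sulfatases overlapped between groups, with 83.1, 87.7 and 82.8 TPM in the M2 libraries and 77.0, 84.4 and 74.7 TPM in the M0 libraries. That overlap came from M0 replicate 2, since the other M0 libraries lay below every M2 library. These sums are given as descriptions, with no test.

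**Figure D3:**
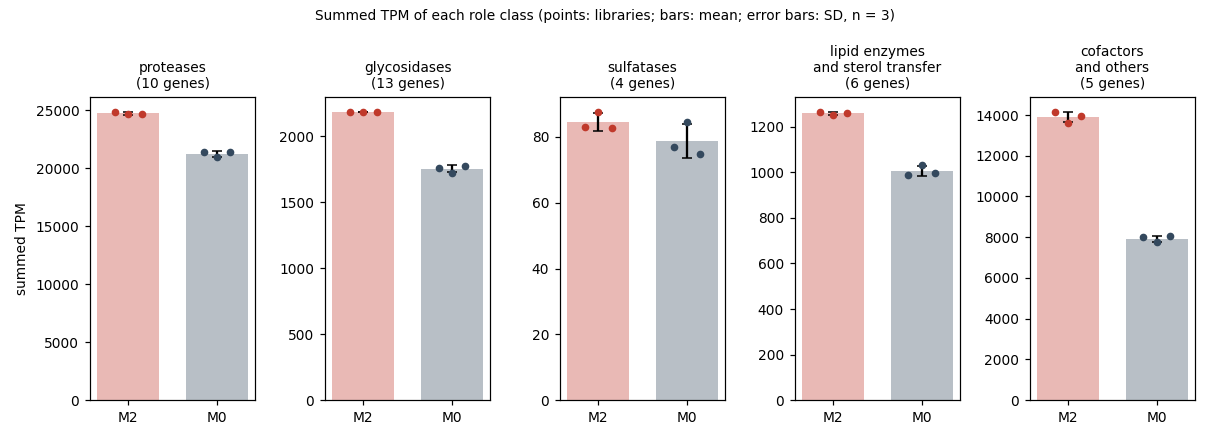
Summed TPM of the genes of each role class in the M2 and M0 groups, on axes that start at 0. Points are libraries, bars the mean and error bars the SD (n = 3). The cofactor class is 1.75 times as high in M2 as in M0 (1.09 without Psap). The sulfatase points overlap, through M0 replicate 2 only.

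Proteases do most of the protein degradation in the lysosome. Of the 10, 6 rose (Ctsz, Ctss, Ctsl, Tpp1, Ctsa and Lgmn), 2 fell (Ctsc and Ctsh) and Ctsb and Ctsd did not pass. Among all genes tested 17.7% rose and 45.3% fell. With no filter on low values the Lgmn rise was not past the threshold (adjusted p = 0.0844). The largest rise was in Ctsz, which encodes a cysteine carboxypeptidase (transcript NM_022325, mm10 chromosome 2, positions 174427494 to 174439039, - strand, 6 exons). It had 1733, 1692 and 1713 TPM in the M2 libraries, against 961, 875 and 981 TPM in the M0 libraries (log2 fold change 0.87, SE 0.044, adjusted p = 6.7e-08). Every M2 library was above every M0 library, by 1.82-fold in mean TPM. Ctss encodes cathepsin S, the cysteine protease that finishes removal of the invariant chain in antigen-presenting cells (transcript NM_001267695, mm10 chromosome 3, positions 95526786 to 95556405, + strand, 8 exons). It had 3683, 3571 and 3613 TPM in the M2 libraries, against 2111, 2251 and 2123 TPM in the M0 libraries (log2 fold change 0.75, SE 0.034, adjusted p = 3.1e-08). Ctsl, whose product cathepsin L is a broad endopeptidase, had 1786, 1736 and 1739 TPM in the M2 libraries, against 1122, 1202 and 1123 TPM in the M0 libraries (log2 fold change 0.61, SE 0.037, adjusted p = 2.4e-07). For both genes the gap between the groups was larger than the spread within either.

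The most abundant protease genes hardly moved on deposited TPM. Ctsd, the aspartic protease cathepsin D, had 11424, 11483 and 11289 TPM in the M2 libraries, against 11196, 10648 and 11266 TPM in the M0 libraries (log2 fold change 0.047, SE 0.029, adjusted p = 0.183). Ctsb, the cysteine protease cathepsin B, had 4431, 4402 and 4454 TPM in the M2 libraries, against 4375, 4358 and 4301 TPM in the M0 libraries (log2 fold change 0.028, SE 0.027, adjusted p = 0.383). In both the M2 libraries lay just above the M0 libraries without overlap, but the test was not passed. After median scaling the log2 fold changes of Ctsd and Ctsb were 0.22 and 0.20 and both passed (adjusted p = 0.00183 and 7.7e-04).

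Ctsc had the larger fall of the 2 proteases that went the other way on deposited TPM. It encodes cathepsin C, a dipeptidyl peptidase that activates granule serine proteases in myeloid and lymphoid cells (transcript NM_009982, mm10 chromosome 7, positions 88278085 to 88315861, + strand, 7 exons). Ctsc had 24.8, 26.0 and 24.6 TPM in the M2 libraries, against 37.4, 40.6 and 36.4 TPM in the M0 libraries (log2 fold change -0.58, SE 0.057, adjusted p = 9.3e-06), with the groups well apart. It is the 1 member that also fell after median scaling (-0.42, adjusted p = 6.6e-05). The authors' deposited table gives it a log2 fold change of -0.43. The aminopeptidase gene Ctsh fell slightly on deposited TPM (170.4 ± 2.89 TPM in M2 and 184 ± 1.78 TPM in M0, adjusted p = 0.0287), but its direction turned after median scaling (0.061, adjusted p = 0.239) and the call was lost without any library but M0 replicate 2 (adjusted p = 0.0593 to 0.13). The other proteases rose less. Tpp1, a tripeptidyl peptidase, averaged 159 ± 2.17 TPM in M2 and 119 ± 4.68 TPM in M0, Ctsa averaged 610.5 ± 3.94 TPM in M2 and 497 ± 14.1 TPM in M0, and Lgmn, the asparaginyl endopeptidase legumain, averaged 852 ± 6.55 TPM in M2 and 785 ± 6.03 TPM in M0 (SD, n = 3 each).

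**Figure D4:**
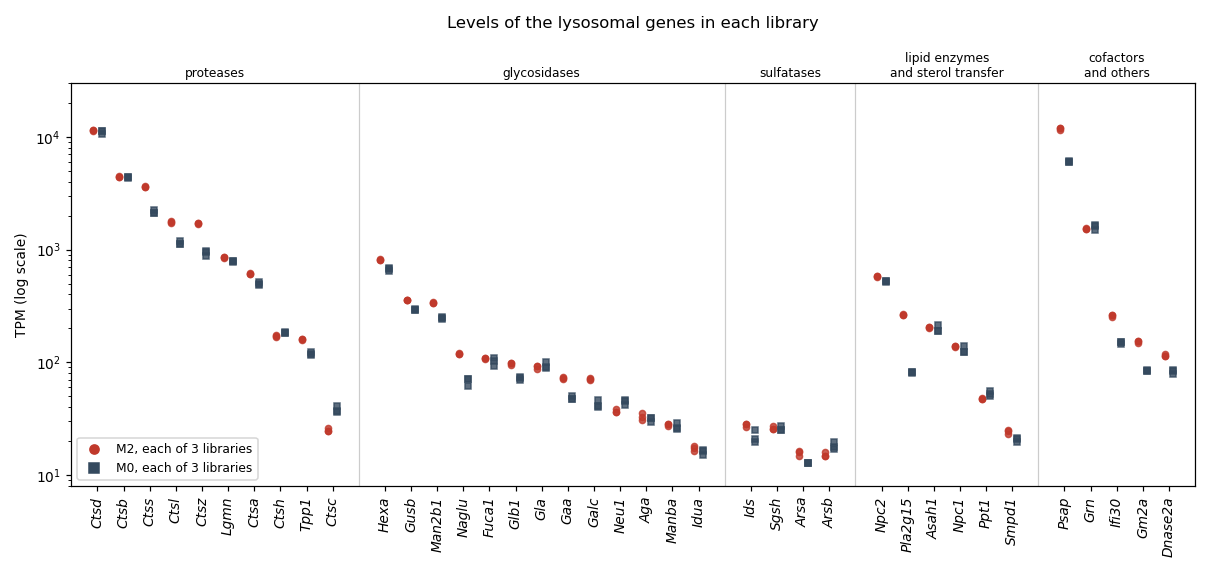
TPM of each member in each library on a log axis, by role and in order of level, with M2 as circles left of M0 as squares. Psap and Ctsd are the highest members in both groups and the 4 sulfatases are among the lowest; Pla2g15 shows the widest gap between the groups.

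Glycosidases take sugar chains apart from their ends. The class as grouped here also holds Aga, whose product cuts the bond between a sugar and asparagine. Of the 13, 7 rose (Naglu, Galc, Gaa, Man2b1, Glb1, Hexa and Gusb), Neu1 fell and 5 did not pass. Over all genes tested, 17.7% rose and 45.3% fell. With all libraries in use Naglu (transcript NM_013792, mm10 chromosome 11, positions 101070094 to 101077671, + strand, 6 exons) rose most among the 13. Naglu encodes an enzyme of heparan sulfate breakdown and is the E-box gene shown above. It had 119, 120.4 and 119.5 TPM in the M2 libraries, against 71.3, 61.6 and 71.1 TPM in the M0 libraries (log2 fold change 0.81, SE 0.058, adjusted p = 9.6e-07). The M2 libraries were nearly identical, and M0 replicate 2 was the lowest of all. Without M0 replicate 2 the log2 fold change was 0.74 for Naglu and 0.81 for Galc. Galc, which removes galactose from galactosylceramide, had 69.6, 72.3 and 71.7 TPM in the M2 libraries, against 39.9, 45.9 and 40.7 TPM in the M0 libraries (log2 fold change 0.74, SE 0.058, adjusted p = 1.6e-06). Gaa, the acid alpha-glucosidase that breaks down glycogen, had 73.0, 71.3 and 73.7 TPM in the M2 libraries, against 50.5, 47.6 and 46.8 TPM in the M0 libraries (log2 fold change 0.58, SE 0.047, adjusted p = 2.2e-06). Groups were apart in all of these.

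The most abundant glycosidase genes rose by smaller amounts. Hexa, the alpha subunit gene of beta-hexosaminidase A, had 813, 818 and 808 TPM in the M2 libraries, against 673, 639.5 and 689 TPM in the M0 libraries (log2 fold change 0.29, SE 0.037, adjusted p = 7.5e-05). Gusb, the beta-glucuronidase gene, had 359.9, 358 and 358 TPM in the M2 libraries, against 294, 291 and 299 TPM in the M0 libraries (log2 fold change 0.28, SE 0.034, adjusted p = 4.7e-05). Man2b1, an alpha-mannosidase gene, had 338, 341 and 338 TPM in the M2 libraries, against 249, 253 and 244 TPM in the M0 libraries (log2 fold change 0.44, SE 0.035, adjusted p = 2.1e-06). None of these overlapped between groups.

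The remaining 7 glycosidase genes ran from 16.2 to 109 TPM in M2 and from 14.96 to 109 TPM in M0. The beta-galactosidase gene Glb1 rose, with a mean of 97.8 ± 2.17 TPM in M2 and 71.8 ± 2.43 TPM in M0 (adjusted p = 1.2e-05). Neu1, the sialidase whose product forms a complex with the products of Glb1 and Ctsa, fell, with 37.1 ± 1.17 TPM in M2 and 44.5 ± 2.37 TPM in M0 (SD, n = 3 each; log2 fold change -0.25, SE 0.054, adjusted p = 0.00221). Its change was no longer past the threshold after median scaling (-0.088, adjusted p = 0.241). Gla, Idua, Manba, Fuca1 and Aga did not pass and overlapped between groups, with log2 fold changes of -0.048, 0.10, 0.056, 0.094 and 0.07. After median scaling Idua, Manba, Fuca1 and Aga passed as higher (0.26, 0.22, 0.26 and 0.23), whereas Gla did not (0.12, adjusted p = 0.0633). Without M0 replicate 2 the value of Gla was 0.0060, and the groups of Manba no longer overlapped. Fuca1 also passed without M0 replicate 3 (0.15, adjusted p = 0.0278).

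Sulfatases strip sulfate groups and had the lowest summed TPM of the classes. Ids and Arsa rose, Arsb fell and Sgsh did not pass, where 17.7% of all genes tested rose and 45.3% fell. With no filter on low values none of the 4 passed (adjusted p = 0.144 for Ids, 0.0965 for Arsa and 0.181 for Arsb). Ids, the iduronate sulfatase of heparan and dermatan sulfate breakdown, had 26.5, 28.2 and 28.1 TPM in the M2 libraries, against 21.0, 24.9 and 19.8 TPM in the M0 libraries (log2 fold change 0.33, SE 0.08, adjusted p = 0.00488). M0 replicate 2 was the highest of its group but still under every M2 library. Arsa, which removes sulfate from sulfatide, had 16.1, 16.3 and 14.7 TPM in the M2 libraries, against 12.9, 12.8 and 12.9 TPM in the M0 libraries (log2 fold change 0.26, SE 0.061, adjusted p = 0.00364). Arsb, which acts on dermatan and chondroitin sulfate, had 14.8, 16.1 and 14.7 TPM in the M2 libraries, against 17.8, 19.7 and 17.1 TPM in the M0 libraries (log2 fold change -0.24, SE 0.069, adjusted p = 0.0114). The Arsb change missed the threshold after median scaling (-0.082, adjusted p = 0.275) and without M2 replicate 3 (adjusted p = 0.0509). Sgsh, the heparan N-sulfatase gene, had 25.7, 27.1 and 25.4 TPM in the M2 libraries, against 25.3, 27.0 and 24.9 TPM in the M0 libraries (log2 fold change 0.017, SE 0.055, adjusted p = 0.799), and its groups overlapped. The Sgsh overlap came from M0 replicate 2, since the other M0 libraries lay just under every M2 library. After median scaling Sgsh passed with a log2 fold change of 0.18 (adjusted p = 0.0101).

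The largest change of the whole set was in a lipid enzyme. Pla2g15 encodes the lysosomal phospholipase A2 (transcript NM_001357319, mm10 chromosome 8, positions 106150354 to 106164718, + strand, 6 exons). It had 265, 264 and 264 TPM in the M2 libraries, against 81.7, 79.6 and 82.0 TPM in the M0 libraries (log2 fold change 1.69, SE 0.038, adjusted p = 1.8e-10). Its mean was 3.26-fold as high in M2 as in M0, and within each group the libraries differed by little. The authors' deposited table gives it a log2 fold change of 1.87, from another transcript of the gene. Of the 6 genes of this class 3 rose (Pla2g15, Smpd1 and Npc2), Ppt1 fell and 2 did not pass. For all genes tested the shares were 17.7% higher and 45.3% lower. With no filter on low values Smpd1 and Npc2 missed the threshold (adjusted p = 0.12 and 0.063).

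Npc2, whose soluble product hands cholesterol to the membrane protein encoded by Npc1, had 585, 574 and 579.6 TPM in the M2 libraries, against 519, 527 and 529 TPM in the M0 libraries (log2 fold change 0.14, SE 0.033, adjusted p = 0.00331). Smpd1, the acid sphingomyelinase gene, had 24.4, 23.3 and 25.2 TPM in the M2 libraries, against 21.0, 19.7 and 21.2 TPM in the M0 libraries (log2 fold change 0.23, SE 0.057, adjusted p = 0.00557). Both were higher in every M2 library. Asah1, the acid ceramidase gene, had 204, 203 and 207 TPM in the M2 libraries, against 191, 212 and 190 TPM in the M0 libraries (log2 fold change 0.052, SE 0.049, adjusted p = 0.373), with M0 replicate 2 above all M2 libraries. Without M0 replicate 2 Asah1 passed, with a log2 fold change of 0.10 (adjusted p = 0.00632). Npc1 behaved alike, with 139 ± 1.01 TPM in M2 and 128 ± 8.45 TPM in M0 (SD, n = 3 each; adjusted p = 0.0806), and passed without M0 replicate 2 (0.16, adjusted p = 7.2e-04). Both passed after median scaling (0.22 and 0.28). Ppt1, which removes fatty acyl groups from proteins, had 48.7, 47.5 and 46.8 TPM in the M2 libraries, against 52.0, 55.1 and 50.3 TPM in the M0 libraries (log2 fold change -0.13, SE 0.049, adjusted p = 0.0362). Its direction turned after median scaling (0.032, adjusted p = 0.559), and the call was lost without M0 replicate 1 or any M2 library (adjusted p = 0.0629 to 0.126).

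The summed TPM of the cofactors and others was 1.75 times as high in M2 as in M0, and most of it was Psap. Without Psap the other 4 genes summed to 2062 ± 17.1 TPM in M2 and 1898 ± 76.4 TPM in M0 (SD, n = 3 each), a ratio of 1.09. Of the 5 genes 4 rose and Grn did not pass, where 17.7% of all genes tested rose and 45.3% fell. Psap encodes prosaposin, the precursor of the saposins that present sphingolipids to their hydrolases (transcript NM_001146124, mm10 chromosome 10, positions 60284461 to 60302600, + strand, 14 exons). It had 12088, 11580.4 and 11865 TPM in the M2 libraries, against 6031, 5945 and 6115 TPM in the M0 libraries (log2 fold change 0.97, SE 0.028, adjusted p = 9.9e-10). Gm2a encodes the activator protein that lifts ganglioside GM2 to beta-hexosaminidase A (transcript NM_010299, mm10 chromosome 11, positions 55097985 to 55113028, + strand, 4 exons), and had 153, 148 and 153 TPM in the M2 libraries, against 85.5, 82.9 and 83.8 TPM in the M0 libraries (log2 fold change 0.84, SE 0.04, adjusted p = 4.0e-08). Its partner Hexa rose by less, as given above. The log2 fold changes of Psap and Gm2a were 1.14 and 1.01 after median scaling.

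Ifi30 encodes the lysosomal thiol reductase that opens disulfide bonds of antigens, and had 264, 250.2 and 260.2 TPM in the M2 libraries, against 150.3, 146 and 152 TPM in the M0 libraries (log2 fold change 0.78, SE 0.04, adjusted p = 6.6e-08). Dnase2a, the acid nuclease gene that degrades engulfed DNA, had 114, 113 and 118 TPM in the M2 libraries, against 83.2, 78.8 and 86.2 TPM in the M0 libraries (log2 fold change 0.47, SE 0.046, adjusted p = 9.7e-06). Both had all M2 libraries above all M0 libraries. Grn, the progranulin gene, had 1528, 1534 and 1549 TPM in the M2 libraries, against 1638, 1504 and 1605 TPM in the M0 libraries (log2 fold change -0.041, SE 0.037, adjusted p = 0.355). Its groups overlapped, but only through M0 replicate 2. It passed as lower without M0 replicate 2 (-0.077, adjusted p = 0.00618) and it passed as higher after median scaling (0.13, adjusted p = 0.0499).

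**Figure D5:**
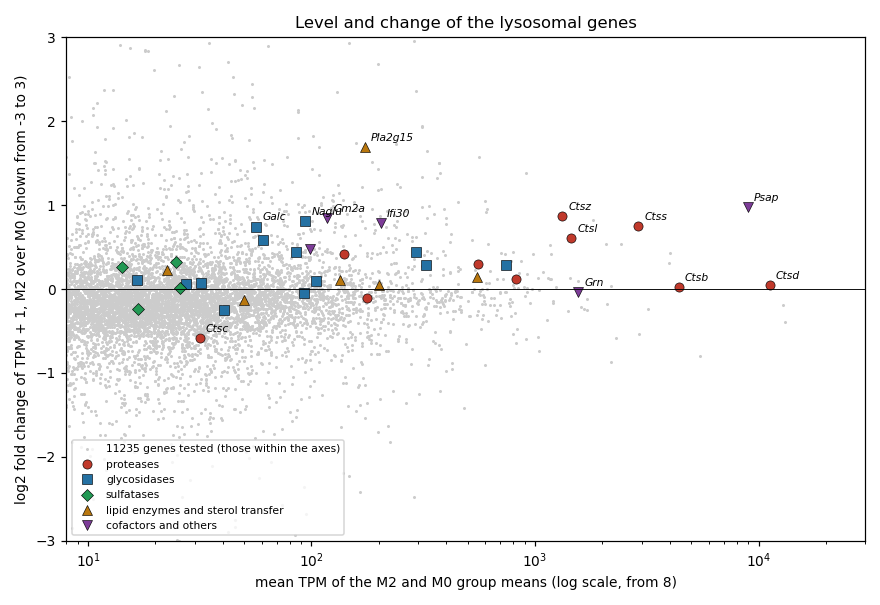
Log2 fold change of TPM plus 1, M2 over M0, against the mean TPM of both groups on a log axis, for genes tested (grey) and for the members by role (coloured symbols). Members at low and high levels lie mostly above 0; Ctsd and Ctsb, at the right, sit close to 0 and Psap close to 1.

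Members with and without an E-box in the promoter window overlapped widely in their change. Of the 11 with CACGTG, 8 rose, none fell and 3 did not pass, with a median log2 fold change of 0.30 and a range from -0.048 to 0.81. Without Lgmn, whose match is not at the measured start, the other 10 had 7 rises and a median of 0.37. Of the 22 without it, 14 rose, 4 fell and 4 did not pass, with a median of 0.29 and a range from -0.58 to 1.69. On deposited TPM 17.7% of all genes tested rose and 45.3% fell. After median scaling the medians were 0.47 with CACGTG and 0.45 without it. Any part of the E-box in these changes was not tested. The genes whose windows are printed include Ifi30 and Naglu, which rose by more than 1.5-fold, and Gla and Ctsd, which did not pass. Psap, Pla2g15 and Ctsz, with the largest changes over all libraries, had no match to any of the 3 motifs in their windows.

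Further genes of the lysosomal degradation machinery were taken from 4 lists, also chosen with earlier results of these data known. Of 39 other lysosomal hydrolase genes 34 were tested. There 20 genes rose, 6 fell and 8 did not pass, where 17.7% of all genes rose and 45.3% fell. The median log2 fold change was 0.20, against -0.15 for all genes. After median scaling 26 rose and 5 fell, where 28.7% of all genes rose and 28.5% fell. Acp5, the tartrate-resistant acid phosphatase gene, had 95.1, 88.6 and 89.9 TPM in the M2 libraries, against 19.2, 19.3 and 20.8 TPM in the M0 libraries (log2 fold change 2.15, SE 0.052, adjusted p = 3.3e-10). Ctsk, a collagen-degrading cathepsin gene, and Naaa, which encodes an amidase of fatty acid ethanolamides, rose with log2 fold changes of 1.26 and 1.24. Hyal1, a hyaluronidase gene, had 7.52, 8.61 and 7.75 TPM in the M2 libraries, against 21.9, 21.4 and 20.1 TPM in the M0 libraries (log2 fold change -1.31, SE 0.069, adjusted p = 9.2e-08). The hydrolases outside the set thus included larger rises and larger falls than those within it.

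The genes that tag and sort hydrolases moved much as all genes did. Of 10 tested, 1 rose, 5 fell and 4 did not pass, where 17.7% of all genes rose and 45.3% fell, and their median log2 fold change was -0.17, against -0.15 for all genes. After median scaling 3 rose and 4 fell, where 28.7% of all genes rose and 28.5% fell. Gnptab encodes the catalytic subunit of the enzyme that starts the mannose 6-phosphate tag. It had 22.3, 22.5 and 22.0 TPM in the M2 libraries, against 49.7, 58.6 and 47.0 TPM in the M0 libraries (log2 fold change -1.17, SE 0.075, adjusted p = 3.6e-07). Igf2r, the larger of the mannose 6-phosphate receptor genes, had 37.5, 38.0 and 36.4 TPM in the M2 libraries, against 54.7, 61.7 and 54.1 TPM in the M0 libraries (log2 fold change -0.59, SE 0.058, adjusted p = 9.8e-06). The sorting receptor gene Sort1 rose (0.90) and its relative Sorl1 fell (-0.41).

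Of 10 cathepsin inhibitor genes 6 were tested, with 3 rises, 2 falls and 1 gene that did not pass, and a median log2 fold change of 0.39. Among all genes tested 17.7% rose and 45.3% fell, with a median of -0.15. Cst3, the gene of the abundant secreted inhibitor cystatin C, had 2354, 2281 and 2341 TPM in the M2 libraries, against 1309.8, 1258 and 1372 TPM in the M0 libraries (log2 fold change 0.82, SE 0.038, adjusted p = 3.1e-08). Cst7, whose product cystatin F is targeted to the lysosome, was low in M0 and rose, with 10.9, 11.2 and 11.4 TPM in the M2 libraries, against 2.47, 2.77 and 2.57 TPM in the M0 libraries (log2 fold change 1.76, SE 0.071, adjusted p = 1.3e-08). Slpi, a secreted protease inhibitor gene, rose close to the minimum level of the test (2.22 ± 0.363 TPM in M2 and 0.800 ± 0.388 TPM in M0, SD, n = 3 each), and Serpinb6a, an intracellular serpin gene, fell (381 ± 5.82 TPM in M2 and 602 ± 18.9 TPM in M0, SD, n = 3 each; log2 fold change -0.66, SE 0.037, adjusted p = 1.5e-07). Of the 4 MiT/TFE factor genes 3 rose and Tfe3 fell on deposited TPM, where 17.7% of all genes rose and 45.3% fell. Tfec had 61.4, 65.1 and 63.8 TPM in the M2 libraries, against 20.0, 24.0 and 21.8 TPM in the M0 libraries (log2 fold change 1.49, SE 0.065, adjusted p = 2.3e-08). Tfeb averaged 47.5 ± 0.845 TPM in M2 and 28.8 ± 3.60 TPM in M0 and Mitf 29.5 ± 0.137 TPM in M2 and 19.1 ± 1.69 TPM in M0 (SD, n = 3 each), with log2 fold changes of 0.71 and 0.61. The fall of Tfe3 was small on deposited TPM (-0.12, adjusted p = 0.0278) and its sign was the opposite after median scaling (0.044, adjusted p = 0.367).

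Some members share exon bases with a neighbouring gene in GENCODE M21, and the strand setting of the counting is not given in the sources used here, so that reads in the shared bases cannot be told apart. This held for 17 members, 12 of them with a protein-coding gene. Ctsa shares up to 311 bases of an exon with Pltp, a phospholipid transfer protein gene at 483 TPM in M2 and 418 TPM in M0. Ppt1 shares up to 129 bases with Cap1, at 207 TPM in M2 and 321 TPM in M0. Dnase2a shares up to 1339 bases with Mast1, at 3.64 TPM in M2 and 2.73 TPM in M0. Hexa shares up to 255 bases with Tmem202, at 9.20 TPM in M2 and 2.76 TPM in M0. On the same strand, Ctsl shares up to 395 bases with a processed pseudogene entry, Gm49230. Ctsd and Glb1 share up to 227 and 165 bases on the same strand with the protein-coding genes Gm49369 and Tmppe. No strand setting would separate reads in the same-strand overlaps.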

How the data were processed

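Polyadenylated RNA of 3 M2 and 3 M0 libraries was measured. The submitters' processing notes name STAR, HOMER 4.11.1, bcl2fastq, DESeq2 and the build mm10. Per the file headers, reads in exons were counted by HOMER for 1 RefSeq transcript of each gene, and the authors deposited TPM per library. Besides log2 values per library, the authors' deposited comparison has a fold change (log2) and its raw and adjusted p-value for each gene. The log2 transformation is not named, and its fold change runs M2 over M0 by the library values. It used another transcript than the TPM table for 4 members. The table's TPM sum to 542749 to 553186 in a library.

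Among the TPM, 3 entries shifted by commas were realigned, and 4 unnamed columns hold only such shifted values. TPM times length gave whole reads within 0.1 read for 99.9% of values under 1000 reads in each library. The test was limma-trend (two-sided; limma 3.58.1 under R 4.3.3, with the trend and robust options) on log2 of TPM, pseudocount 1. Group was the only term. Genes needed 1 TPM or more in 3 or more libraries. Calls were made at an adjusted p under 0.05 (Benjamini-Hochberg, over all genes tested). A fold change on this scale understates that of low genes. For median scaling, TPM were divided by median-ratio factors of 0.942 to 1.09. The test was tried on simulated data.

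The members and lists were chosen with earlier results of these data known. Values in every library are given for 26 members, the 3 with the highest mean TPM in each role class and up to 4 with the largest change among those that passed. From each of the other lists up to 4 such genes are named. Alternatives were pseudocounts of 0.1 and 5, no filter, replicate number as a block, median scaling, the authors' deposited log2 values in place of TPM, each library left out in turn, and limma-voom on recovered reads. The planned comparison of cathepsin protein sequences was not run. Python 3.11.15 (pandas 2.3.3, numpy 2.4.6) made the tables and matplotlib 3.10.9 the figures.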

Additional observations from a re-analysis of the deposited data

How the results depend on the processing

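The call and direction of 18 of the 38 members held under all 13 alternatives, 17 as higher and Ctsc as lower. On deposited TPM 22 members rose and 5 fell. The count that fell was 1 with no filter, 3 with replicate number as a block, 1 after median scaling, 3 with limma-voom on recovered reads and 1 on the authors' log2 values. With 1 library left out it was 2 to 6, and the count that rose was 22 to 24. The calls lost with no filter were those of Lgmn, Ids, Arsa, Smpd1 and Npc2 as higher and Ctsh, Neu1, Arsb and Ppt1 as lower, and also those of Slpi, Sorl1 and Tfe3. The count that rose was 17 with no filter, 22 with the block, 26 with limma-voom, 32 after median scaling and 33 on the authors' log2 values. Over all genes, 1226 rose and 2461 fell with no filter, 3227 and 3209 after median scaling, and 3318 and 3323 on the authors' log2 values, against 1983 and 5088. The fit with no filter took in 25124 genes, where the main fit took in 11235. With limma-voom 2331 of all genes rose and 4619 fell. With 1 library left out, 1608 to 2214 of all genes rose and 4456 to 5062 fell. Summed TPM in M2 over M0 was 1.48 for all members after median scaling, against 1.32. By class it was 1.31 for proteases, 1.40 for glycosidases, 1.21 for sulfatases, 1.41 for lipid genes and 1.97 for cofactors after that scaling, against 1.16, 1.25, 1.07, 1.25 and 1.75.

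Among the members and the genes named from the 4 other lists, directions turned for Ctsh, Gla, Ppt1, Grn, Sgsh and Tfe3. After median scaling the log2 fold changes were 0.061 for Ctsh, 0.12 for Gla, 0.032 for Ppt1, 0.13 for Grn and 0.044 for Tfe3. On the authors' log2 values they were 0.060, 0.12, 0.032, 0.13 and 0.046 for the same genes. With limma-voom Gla had 0.0014 and Grn 0.0100, and without M0 replicate 2 Gla had 0.0060. With 1 library left out Gla ranged from -0.079 to 0.0060 and Sgsh from -0.0093 (without M2 replicate 2) to 0.051, with -0.0046 without M0 replicate 3. After median scaling 6 further genes of those lists turned from lower to higher (Plbd2, Pld4, Ctbs, Sumf1, Sumf2 and Serpinb1a), and of these Pld4 then passed. The cause was not tested, apart from the scaling, which lifts every M2 value relative to M0.

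Same-numbered libraries did not deviate together (r = 0.00495, -0.00487 and -0.0428 over genes). This cannot tell whether they were paired, since the M2 libraries differed little from each other and the labels do not say. With replicate number as a block 1953 genes rose and 4963 fell. Leaving out a library leaves 2 in its group. The limits are the small groups, which may be technical replicates, and the scaling, which decides the call of members that changed by little.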

Other observations

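Ratios between partner transcripts were chosen after values had been seen and are given with no test. TPM of Neu1 per TPM of Ctsa, whose products form a complex, was 0.0609 ± 0.00228 in M2 and 0.0895 ± 0.00326 in M0 (SD, n = 3 each), and no M2 library reached an M0 library. For Glb1, the other partner in that complex, TPM per TPM of Ctsa was 0.160 ± 0.00262 in M2 and 0.145 ± 0.00734 in M0. TPM of Gm2a per TPM of Hexa was 0.187 ± 0.00436 in M2 and 0.126 ± 0.00406 in M0. Among inhibitors set against Ctsl, the secreted Cst3 had a ratio of 1.33 ± 0.0177 in M2 and 1.14 ± 0.0901 in M0, while the cytosolic Cstb had 0.416 ± 0.0090 in M2 and 0.776 ± 0.0138 in M0. Such ratios within a library do not depend on how the libraries are scaled.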
